A study of Coryphaena hippurus with 27 samples.

Results

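The miR-92, miR-25 and miR-363 names form one seed family of microRNAs, and 25 of the 1449 microRNA names counted in mahi-mahi (Coryphaena hippurus) embryos and larvae belong to it. They were chosen by name alone: every row whose name is miR-92, miR-25 or miR-363 with any letter or arm. The family and its 8 lead names (miR-92, miR-92-3p, miR-92a, miR-92a-3p, miR-92b, miR-92b-3p, miR-25 and miR-25-3p) were put forward with the fold changes of these data known, so the calls below describe the fit and are no independent evidence. Small RNA was sequenced from whole animals at 24, 48 and 96 hours post fertilisation (hpf), in 27 libraries that form 9 groups of 3. Control animals were kept in seawater with 0 g/L of oil. Slick oil and source oil animals were kept in dilutions of a high-energy water accommodated fraction (HEWAF) of each oil, a blended mixture of oil and seawater. The labels give 1 g/L for both oils, and it is not clear from them whether this is the loading of the HEWAF stock or of the dilution. Slick oil was skimmed from the sea surface and source oil came from the well of the Deepwater Horizon spill. Each library is 1 pool of 30 embryos or larvae from eggs of a natural spawn of wild-caught broodstock. The pools were kept from soon after fertilisation at 27 °C in beakers whose water was not renewed. The labels do not say whether the replicates came from separate spawns, so p-values measure the spread between these pools, which may be technical.

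MicroRNAs are short RNAs that guide Argonaute proteins to messenger RNAs, and the bases near their 5′ end, the seed, largely set which messages are repressed. In mammals miR-92a is made from the miR-17-92 and miR-106a-363 transcripts, miR-25 from the miR-106b-25 transcript and miR-363 from miR-106a-363, while miR-92b has a transcript of its own. The strand that carries the shared seed is the 3p strand of the hairpin, and the 5p strand is usually the passenger that is discarded. In mice and human cells miR-92a restrains blood vessel growth and the miR-17-92 transcript promotes cell division. In mice miR-25 has been tied to calcium handling in heart muscle, and in zebrafish miR-92 acts on endoderm formation. Oil exposure is known for its effects on the heart of fish embryos.

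The 25 names are not 25 separate measurements. Of the 24 names found in all 6 count tables, 5 passenger names of miR-92 and miR-92a held identical counts in 27 of 27 libraries, which leaves 20 different count profiles. miR-363 and miR-363-3p were equal in 26 libraries, and miR-25 and miR-25-3p were equal in 21 and never more than 2 counts apart. miR-92 and miR-92a differed by at most 16 counts, and miR-92 and miR-92-3p by at most 5. miR-92e was listed in 1 table only, at a count of 0 or 1. Counts of near-identical names may share reads, because the counting rule is not given in the sources used here. The names that carry most of the signal had median counts of 236 (miR-25), 223 (miR-92a-3p), 201 (miR-92a), 181 (miR-92b) and 115 (miR-92b-3p) over the 27 libraries. miR-92c had a median of 45, and miR-363 one of 12.

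Library totals lay between 51925 and 93055 counts and the highest count of any name was 771, so even the leads were measured on 56 to 295 counts per library. Replicates varied little: the chi-square per degree of freedom between 2 libraries of a group was 0.482 to 1.82, and under 1, the value of sampling noise, in 19 of 27 pairs. With such low counts and small spread, a count may be a number of distinct sequences given a name and not of reads. If so, every level, fold change and depth here is of distinct sequences and not of RNA abundance. At 24 hpf, slick replicates 1 and 2 (0.555) and source replicates 1 and 3 (0.777) differed by less than the sampling noise while the other pairs of their groups differed. With each such pair averaged and counted as 1 sample, 12 family names (slick) and 8 (source) were called. The share of all names called in those fits is not given here, so these counts do not set the family apart. Every pair was also under 1 in slick and source oil at 48 hpf, and in source oil and controls at 96 hpf. No averaged fit is given for those groups. Depth moved with oil at 2 stages. At 24 hpf the source libraries held 51925 to 56616 counts and the controls 62229 to 75306. At 96 hpf the slick libraries held 89482 to 93055, the source libraries 86977 to 90152 and the controls 63162 to 75228. The part of depth in the results was not tested beyond the scaling alternatives.

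Of the 25 names, 12 passed the filter on low counts (edgeR's filterByExpr) in all 6 comparisons of oil with control, 4 passed in some of them (miR-92d-3p in 4, miR-25b-3p in 3, miR-363 and miR-363-3p in 5) and 9 in none. The 9 were 7 passenger names, miR-92d and miR-92e, with no count above 11. A name is called below where edgeR's quasi-likelihood test, adjusted by Benjamini-Hochberg over all names of the comparison, gave less than 0.05.

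At 24 hpf, 12 of the 15 family names tested were higher in slick oil, beside 38.6% of all 616 names called in either direction and 21.3% called higher. In source oil, 9 of 14 were higher, beside 26.3% called and 14.2% called higher. At 48 hpf, 11 of 16 were higher in slick oil (40.8% of all names called, 19.5% higher). In source oil 5 of 16 were higher (19.4% called, 9.22% higher), and 3 without control replicate 5. At 96 hpf, 9 of 15 were higher in slick oil (60.1% called, 32.5% higher). In source oil 4 of 13 were higher and 2 were lower (48.0% called, 28.3% higher and 19.7% lower). The number higher there was 2 without control replicate 9 and 1 with DESeq2, and the number lower was 0 with DESeq2 and with cyclic loess scaling. Oil and control libraries did not overlap for 13 of 15 family names in slick oil at 24 hpf (52.6% of all names), 13 of 16 at 48 hpf (55.5%) and 11 of 15 at 96 hpf (66.0%). In source oil they did not overlap for 12 of 14 (43.5%), 8 of 16 (38.6%) and 10 of 13 (61.3%). The slick and source comparisons of a stage share their 3 control libraries. In the authors' deposited table the numbers called higher were 8 (slick) and 6 (source) at 24 hpf, 11 and 3 at 48 hpf and 8 and 2 at 96 hpf, with 2 called lower for source oil at 96 hpf. Of all names there, 93 of 1234 (slick) and 61 of 1160 (source) were called in either direction at 24 hpf. At 48 hpf 137 of 1135 and 40 of 1156 were called, and at 96 hpf 356 of 1166 and 242 of 1136.

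The counts of all family names together, in which near-identical names overlap, made up 2.26 ± 0.0830% (SD, n = 3) of a control library at 24 hpf, 3.29 ± 0.275% in slick and 3.02 ± 0.0883% in source oil. At 48 hpf the shares were 2.10 ± 0.0818%, 3.06 ± 0.0949% and 2.47 ± 0.0524%. At 96 hpf they were 1.80 ± 0.0420%, 2.24 ± 0.0396% and 1.98 ± 0.0583%, and the oil libraries lay above the controls at every stage.

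The median log2 fold change over the family names tested, oil minus control, was 0.73 (slick) and 0.53 (source) at 24 hpf, 0.64 and 0.30 at 48 hpf, and 0.33 and 0.19 at 96 hpf. The median over all names tested lay between -0.03 and 0.03 in these comparisons. All-name medians differed by abundance. At 24 hpf names with a mean count of at least 100 had 0.03 (slick) and 0.10 (source). Names under 100 had -0.08 and -0.15. At 48 hpf these were 0.06 and 0.01, and -0.08 and -0.03. At 96 hpf they were -0.14 and -0.13, and 0.25 and 0.20. Of the family names with a mean count of at least 100 at 24 hpf, 8 of 8 rose in each oil. Of all names of that abundance 60 of 221 rose in slick and 61 of 215 in source oil. At 48 hpf 8 of 8 rose in slick oil, beside 56 of 236, and 5 of 8 in source oil, beside 24 of 242. Of the family names with a mean count of at least 100 at 96 hpf, 5 of 7 rose in slick oil, beside 68 of 294 names of that abundance. In source oil 2 rose and 2 fell of 7, beside 57 that rose and 128 that did not pass of 291, with the rest lower.

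**Figure D1:**
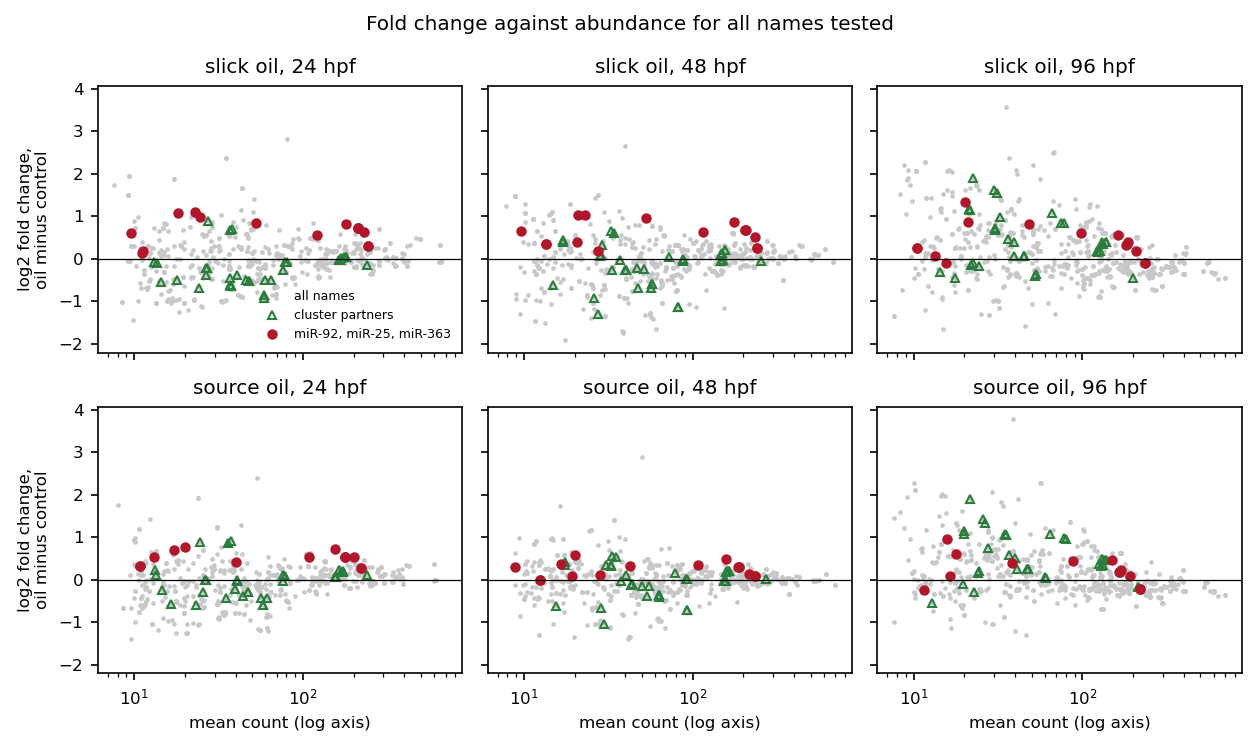
Fitted log2 fold change (oil minus control) against mean count on a log axis for every name tested in each of the 6 comparisons, with the family and its cluster partners marked. The family names with a mean count of at least 100 lie above 0 at 24 and 48 hpf, and at 96 hpf miR-25 and miR-25-3p lie below it (in slick oil at 0.02, above it, with cyclic loess scaling).

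miR-92a is the strand whose mammalian form comes from the miR-17-92 transcript. Levels are normalised counts per 70000, scaled within the table of the comparison. At 24 hpf miR-92a stood at 159, 186 and 169 in the controls and 294, 308 and 247 in slick oil, and at 236, 260.1 and 248 in source oil. No oil library overlapped the controls, and slick replicate 3 was the lowest of its group. The log2 fold changes were 0.73 ± 0.10 (SE, n = 3 against 3) in slick and 0.53 ± 0.09 in source oil. At 48 hpf the controls held 162, 152 and 165, slick oil 253, 245 and 272 and source oil 196, 195 and 199. The 3 groups did not overlap, with source oil between the other two, and the fold changes were 0.69 ± 0.06 and 0.30 ± 0.06. At 96 hpf the controls held 136, 133 and 141, slick oil 183, 182 and 176 and source oil 151, 163 and 163. The oil groups again lay above the controls, by 0.40 ± 0.07 and 0.23 ± 0.08.

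miR-92a was called higher in all 6 comparisons, but 2 of the source oil calls depend on single libraries. Its adjusted p in edgeR's quasi-likelihood test at 48 hpf was 0.00535, and 0.0662 without control replicate 5. At 96 hpf it was 0.0279, and between 0.052 and 0.119 without control replicate 7, 8 or 9 or source replicate 8 or 9. DESeq2 gave 0.073 and 0.234 for these 2 comparisons. miR-92 and miR-92-3p, which repeat miR-92a almost count for count, were called in 5 of 6 comparisons and reached 0.18 and 0.19 in source oil at 96 hpf without passing. Their source calls at 48 hpf were lost in DESeq2 (adjusted p 0.0668 and 0.0612).

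miR-92a-3p, counted apart from miR-92a, moved less after 24 hpf. Its log2 fold changes were 0.64 ± 0.10 and 0.54 ± 0.08 in slick and source oil at 24 hpf. They were 0.51 ± 0.06 and 0.14 ± 0.07 at 48 hpf, and 0.19 ± 0.07 and 0.08 ± 0.07 at 96 hpf. The source oil values at 48 and 96 hpf did not pass, and the groups overlapped there. At 96 hpf the controls held 159, 175 and 164, slick oil 191, 195 and 185 and source oil 168, 181 and 173. The slick call at 96 hpf (adjusted p 0.0347 in edgeR's quasi-likelihood test) became 0.161 without control replicate 7, 0.12 without control replicate 9, 0.0518 without slick replicate 7 and 0.0854 without slick replicate 8, and was 0.191 in DESeq2.

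miR-92b, which in mammals is made from a transcript of its own and is known from neural progenitors, had a larger log2 fold change than miR-92a-3p in all 6 comparisons, a difference that was not tested. At 24 hpf the controls held 131, 144 and 139, slick oil 246, 272 and 219 and source oil 227, 225 and 235. At 48 hpf the controls held 129, 117 and 126, slick oil 228, 212 and 239 and source oil 175, 169.6 and 178. At 96 hpf the controls held 111, 104 and 115, slick oil 164, 162 and 163 and source oil 142, 158 and 151. Every oil library was above every control library of its stage. The log2 fold changes were 0.83 ± 0.09 and 0.73 ± 0.08 at 24 hpf, 0.87 ± 0.07 and 0.49 ± 0.07 at 48 hpf, and 0.57 ± 0.08 and 0.46 ± 0.08 at 96 hpf. miR-92b was called in all 6 comparisons and kept its call without any single library in each of them.

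miR-92b-3p, the guide strand name of the same miRNA, was also called higher in all 6. Its level at 96 hpf was 63.6, 59.1 and 72.4 in controls, 105, 100.3 and 93.5 in slick and 77.7, 89.1 and 97.8 in source oil, so both oil groups lay above the controls. The log2 fold changes were 0.56, 0.62 and 0.61 in slick oil at 24, 48 and 96 hpf and 0.54, 0.34 and 0.45 in source oil. The source call at 48 hpf (adjusted p 0.021, edgeR's quasi-likelihood test) became 0.183 without control replicate 5 and 0.068 without source replicate 6. DESeq2 gave 0.237 there and 0.0633 in source oil at 96 hpf.

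**Figure D2:**
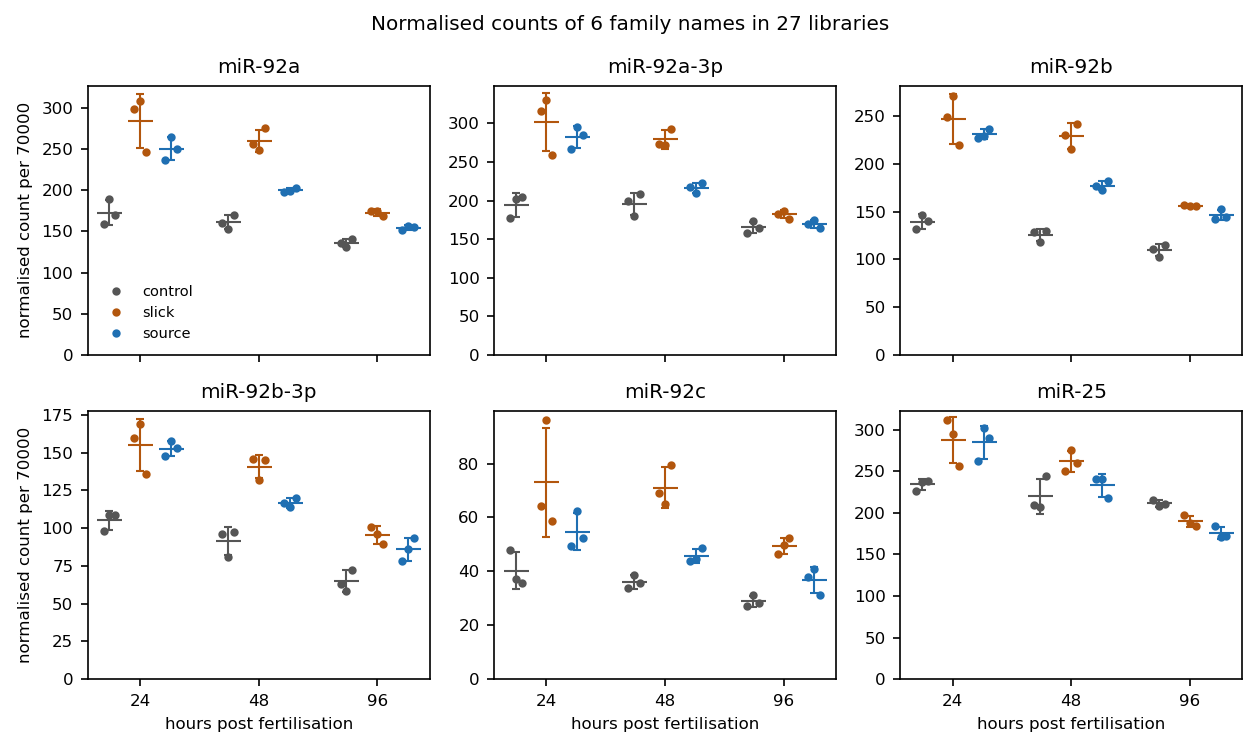
Normalised counts per 70000 (scaled over all 27 libraries) of 6 family names by stage and treatment. Points are libraries, and bars are the mean ± SD of 3; the oil libraries of miR-92b and miR-92a lie above the controls at every stage, and those of miR-25 lie below the controls at 96 hpf (with cyclic loess scaling the slick log2 difference is 0.02, above 0).

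The less abundant miR-92c, miR-92c-3p and miR-92d-3p gave the largest log2 fold changes of the family in slick oil at 48 and 96 hpf, on median counts of 45, 24 and 18. miR-92c at 48 hpf stood at 33.9, 38.3 and 34.7 in controls, 68.2, 63.9 and 78.2 in slick oil and 43.5, 43.6 and 47.6 in source oil. It was called in slick oil at each stage (0.84 ± 0.21, 0.97 ± 0.16 and 0.82 ± 0.17) and did not pass in source oil (0.41 ± 0.19, 0.32 ± 0.16 and 0.38 ± 0.18). At 24 hpf slick replicate 2 held 96.1 and the other two slick libraries 63.1 and 58.4.

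miR-92c-3p at 96 hpf stood at 11.4, 9.18 and 7.53 in controls, 25.6, 22.0 and 22.8 in slick oil and 18.4, 16.4 and 18.3 in source oil. Its fold changes were 1.34 ± 0.25 in slick and 0.95 ± 0.23 in source oil, and both groups lay above the controls. At 24 hpf they were 0.98 and 0.77, also called, and at 48 hpf 1.04 (called) and 0.58 (not passed). The source call at 24 hpf (adjusted p 0.0242 in edgeR's quasi-likelihood test) became 0.132, 0.054, 0.0577 and 0.115 without control replicate 1, control replicate 2, source replicate 1 and source replicate 3. The source call at 96 hpf (0.00691) became 0.0591 without control replicate 9, and 0.0944 in DESeq2.

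miR-92d-3p was not tested at 24 hpf, where its counts were too low. At 48 hpf it stood at 12.2, 15.7 and 13.00 in controls and 32.5, 25.7 and 26.4 in slick oil, a called difference of 1.04 ± 0.24. At 96 hpf the slick libraries held 16.8, 20.5 and 30.4 against 12.5, 12.2 and 12.2 in controls. That difference (0.87 ± 0.26, adjusted p 0.00375 in edgeR's quasi-likelihood test) fell to 0.60 (0.0927) without slick replicate 9, the highest of the 3. In source oil it was 0.38 at 48 hpf and 0.60 at 96 hpf and did not pass.

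miR-25, the most abundant family name by mean count, had smaller log2 fold changes than the miR-92 names at 24 and 48 hpf, and at 96 hpf values below 0 that passed in source oil only. At 24 hpf the controls held 226, 233 and 237, slick oil 306, 294 and 256 and source oil 262, 296 and 286. Both oil groups lay above the controls, by 0.30 ± 0.08 and 0.27 ± 0.08. At 48 hpf the controls held 210.3, 205 and 236 and slick oil 247, 271 and 256, a called rise of 0.26 ± 0.06. Source oil at 48 hpf (238, 236 and 213) overlapped the controls and did not pass (0.08 ± 0.07). At 96 hpf both oil groups lay below every control library, though with cyclic loess scaling the slick log2 difference was 0.02, above 0: the controls held 217, 211 and 209.8, slick oil 206, 196 and 193 and source oil 183, 177 and 180.3. Only the source difference was called (-0.22 ± 0.07, against -0.10 ± 0.07 in slick oil). All names with a mean count of at least 100 had a median of -0.13 in source and -0.14 in slick oil at that stage.

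The miR-25 calls are near the threshold. In edgeR's quasi-likelihood test the adjusted p at 24 hpf was 0.0116 in slick oil, and 0.0698 without control replicate 1. In source oil it was 0.0149, and 0.107, 0.0525 and 0.0704 without control replicate 1, control replicate 3 and source replicate 3. DESeq2 on the same counts gave 0.0804 and 0.18, and with cyclic loess scaling the source value was 0.129. The lower value in source oil at 96 hpf had an adjusted p of 0.013 in edgeR, 0.0557 in DESeq2 and 0.16 (log2 -0.14) with cyclic loess scaling, which centres fold changes along abundance. With that scaling the slick value at 96 hpf was 0.02, on the other side of 0. miR-25-3p gave nearly the same values.

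Of the oil comparisons, miR-25-5p, the passenger strand of miR-25, was called in slick oil at 24 hpf only, on a median count of 15. miR-25-5p at 24 hpf stood at 12.6, 12.1 and 12.9 in controls, 24.1, 31.3 and 24.6 in slick oil and 16.1, 20.9 and 18.5 in source oil. miR-25-3-5p, a further 5p name, stood at 16.2, 15.4 and 15.1, 26.4, 35.8 and 37.9 and 21.0, 32.0 and 23.8 in the same groups. Both rose in slick oil at 24 hpf, by 1.08 ± 0.21 and 1.10 ± 0.21 on the log2 scale, and neither passed in source oil (0.54 and 0.69) nor in any oil comparison at 48 or 96 hpf. There their values lay between -0.25 and 0.40. miR-25b-3p was tested in 3 comparisons and did not pass, at 0.60, 0.66 and 0.30.

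miR-363, which in mammals shares a transcript with a copy of miR-92a, was near the filter limit and gave no call. At 48 hpf its levels were 11.3, 11.3 and 13.00 in controls, 14.7, 12.4 and 17.97 in slick oil and 11.6, 10.7 and 13.1 in source oil, and the groups overlapped. Its log2 fold changes ranged from -0.01 ± 0.23 (source, 48 hpf) to 0.34 ± 0.25 (slick, 48 hpf), and it was not tested in source oil at 96 hpf. Of miR-363 and miR-363-3p, 0 were called in 5 comparisons with edgeR's quasi-likelihood test, 0 had an unadjusted p under 0.05, and DESeq2 called 0. With SEs of 0.23 to 0.29, a change of the size seen in miR-25 was not detectable at this depth.

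**Figure D3:**
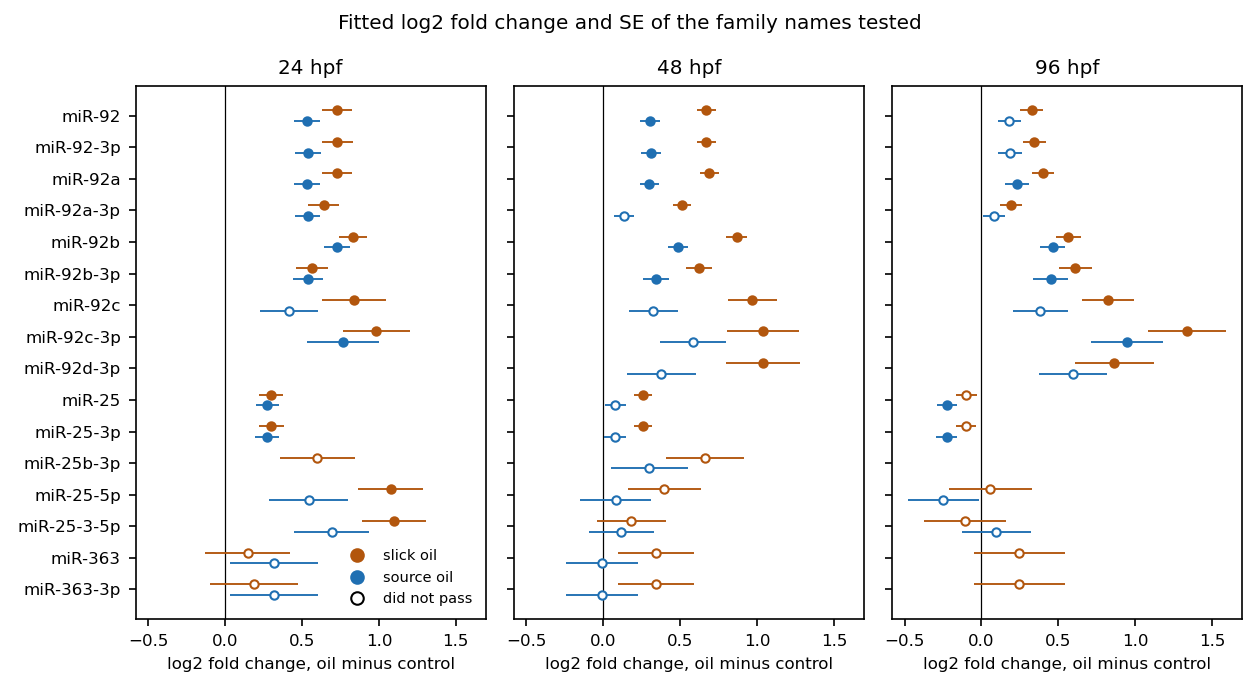
Log2 fold change (oil minus control, x axis) with its SE for each family name tested (y axis), by stage. Filled points passed the adjusted threshold and open points did not; the miR-92 names lie to the right of 0 at each stage, and miR-25 lies to the left at 96 hpf (in slick oil at 0.02, to the right, with cyclic loess scaling).

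Ratios of the counts of 2 names within a library do not depend on the scaling between libraries. The ratios were picked after their values were seen and are given with no test. The log2 ratio of miR-92a to miR-25 was -0.44 ± 0.10 (SD, n = 3) in controls, -0.01 ± 0.07 in slick and -0.18 ± 0.03 in source oil at 24 hpf. At 48 hpf it was -0.44 ± 0.07, -0.01 ± 0.12 and -0.22 ± 0.10. At 96 hpf it was -0.64 ± 0.06, -0.13 ± 0.03 and -0.18 ± 0.09. The oil libraries lay above the controls at every stage, and in slick oil at 24 and 48 hpf miR-92a and miR-25 had about equal counts.

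Among the miR-92 names, the log2 ratio of miR-92b to miR-92a-3p also lay higher in every oil library than in the controls of its stage. It went from -0.48 ± 0.06 in controls to -0.29 ± 0.05 and -0.29 ± 0.07 in slick and source oil at 24 hpf. At 48 hpf the values were -0.64 ± 0.04, -0.28 ± 0.05 and -0.29 ± 0.01. At 96 hpf they were -0.59 ± 0.14, -0.22 ± 0.04 and -0.21 ± 0.03. Slick and source oil overlapped in this ratio at each stage. The ratio of miR-25 to its passenger miR-25-5p was lower in both oils at 24 hpf, with log2 ratios of 3.43 ± 0.22 in slick and 3.93 ± 0.10 in source oil against 4.21 ± 0.06 in controls. Neither oil group overlapped the controls there, and both did at 48 and 96 hpf.

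**Figure D4:**
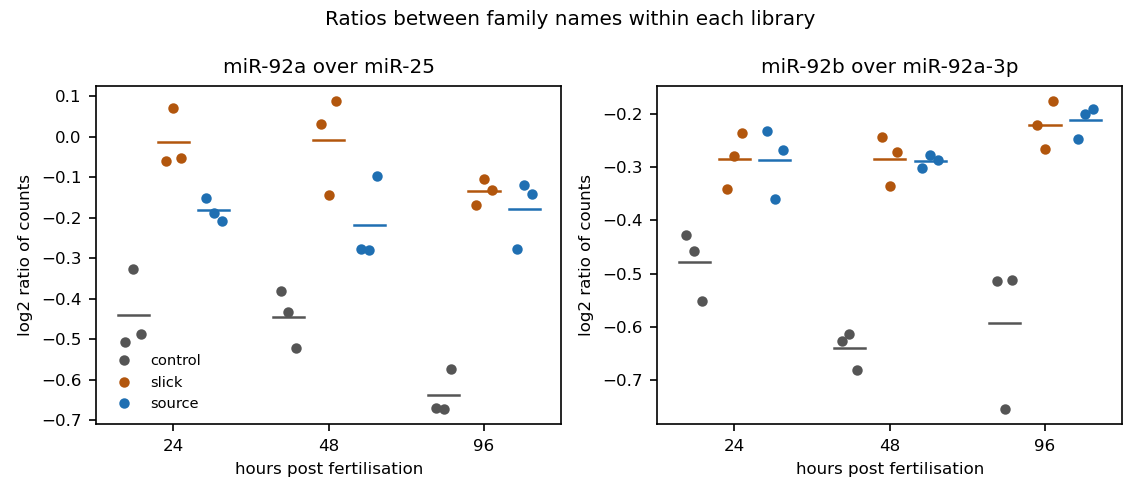
Log2 ratios of counts within each library (y axis) by stage, for miR-92a over miR-25 and miR-92b over miR-92a-3p. Points are libraries and lines are group means of 3; in both panels the oil libraries lie above the controls of their stage.

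Few family names were called between the control stages, though the count from 48 to 96 hpf depended on the scaling. Scaled over all 27 libraries, miR-92a in controls went from 173 ± 15.1 (SD, n = 3) at 24 hpf to 161 ± 8.72 at 48 and 136 ± 5.26 at 96 hpf. miR-92b went from 139 ± 7.73 to 125 ± 6.74 and 109 ± 6.23, and miR-25 from 234 ± 6.76 to 219.9 ± 21.1 and 211 ± 3.71. Between control 24 and 48 hpf, 2 of 15 family names were called, beside 45.3% of all 605 names called and 23.3% called higher: miR-92d-3p (1.28 ± 0.28) and miR-25-3-5p (0.67 ± 0.23) were higher at 48 hpf. Between 48 and 96 hpf, 2 of 15 were called, beside 58.7% of names called and 29.1% called lower: miR-92b-3p (-0.43 ± 0.11) and miR-25-3-5p (-0.82 ± 0.23) were lower at 96 hpf. DESeq2 called none of these in either step. Without control 48 hpf replicate 6 the first count was 5. Without any one of control 24 hpf replicates 2 and 3 and control 48 hpf replicates 4 and 5 it was 1. The second count was 6 without control 24 hpf replicate 3 and 4 without control 96 hpf replicate 8. It was also higher with library size alone and with cyclic loess scaling. Control groups did not overlap for 5 of 15 family names between 24 and 48 hpf, beside 311 of all 605 names. Between 48 and 96 hpf they did not overlap for 8 of 15, beside 412 of 605.

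Ordered by level over the 9 groups, miR-92a was highest in slick oil at 24 hpf (285 ± 32.9), then slick oil at 48 hpf (260.2 ± 13.9) and source oil at 24 hpf (251 ± 14.3). Each of these overlapped its neighbour in the order. Source oil at 48 hpf (200.1 ± 2.69) stood apart from the groups above and below it. Slick oil at 96 hpf (173 ± 3.94) overlapped the 24 hpf controls, and the 96 hpf controls were lowest and apart from the rest. For miR-25 the order differed: the lowest groups were slick oil (189.9 ± 6.45) and source oil (175 ± 7.36) at 96 hpf, each apart from the group above it.

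In 1 fit of the 3 stages, 8 of 16 family names had a slick effect that differed between stages, beside 41.4% of 691 names, and 5 of 16 had a source effect that did, beside 22.0% of 704. Both counts lie near the shares of all names. The slick effect at 96 hpf minus that at 24 hpf was -0.37 for miR-92b, -0.43 for miR-92a and -0.50 for miR-25 on the log2 scale. The source effect differed by -0.54 for miR-25 and -0.49 for miR-92a-3p. miR-92b-3p and miR-92c did not pass for either oil, and miR-92a and miR-92b did not pass for source oil. The slick count was 1, 4 and 2 without control 96 hpf replicates 7, 8 and 9, and 4 without slick 48 hpf replicate 4. The source count was 3 without any one of 16 of its 18 libraries, and 5 without either of the others. With cyclic loess scaling the counts were 2 and 0.

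Slick and source oil differed within the family at 48 hpf. Of 16 names, 6 were higher in slick oil, beside 3.61% of 637 names called and 2.98% called higher. They were miR-92 (0.36), miR-92-3p (0.35), miR-92a (0.38 ± 0.06), miR-92a-3p (0.37 ± 0.06), miR-92b (0.37 ± 0.06) and miR-92c (0.64 ± 0.13), as log2 differences of slick minus source oil. miR-25 did not pass (0.17 ± 0.06). Of the 8 family names with a mean count of at least 100, 5 were higher, beside 17 of 230 names of that abundance. Among these names miR-92, miR-92-3p and miR-92a repeat nearly the same counts. At 24 hpf edgeR's quasi-likelihood test called 0 of 15 family names (1.16% of 602 names), 1 had an unadjusted p under 0.05 and DESeq2 called 0. The difference in miR-92a was 0.19 ± 0.09 and in miR-92b 0.10 ± 0.09. At 96 hpf edgeR called 0 of 16 (4.33% of 670 names), 6 had an unadjusted p under 0.05 and DESeq2 called 0. There miR-92c came nearest, at 0.47 ± 0.14 with an adjusted p of 0.051 in edgeR's quasi-likelihood test. Whether the slick to source difference itself differed between stages was not tested.

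The other members of the mammalian transcripts that hold miR-92a, miR-25 and miR-363 are the miR-17, miR-18, miR-19, miR-20, miR-93 and miR-106 names, 60 in all. Some of these names also repeat each other, such as miR-17-5p with miR-17a-5p and miR-19a with miR-19a-3p, at equal or nearly equal levels. The partner counts here and below are thus not of separate measurements. At 24 hpf, 3 rose and 8 fell of 34 tested in slick oil, beside 21.3% of all names higher and 17.4% lower, and 3 rose and 2 fell of 34 in source oil, beside 14.2% and 12.2%. At 48 hpf, 2 rose and 8 fell of 34 in slick oil (19.5% and 21.3% of all names), and 2 rose and 5 fell of 34 in source oil (9.22% and 10.1%). At 24 and 48 hpf the counts were thus near or below the shares of all names. At 96 hpf, 17 rose and 3 fell of 33 in slick oil (32.5% and 27.6%), and 21 rose and 0 fell of 33 in source oil (28.3% and 19.7%). Most partners had a mean count under 100, and of all names in that class 150 of 377 rose in slick and 130 of 370 in source oil at 96 hpf. Of the 8 partners with a mean count of at least 100, 4 rose and 1 fell in slick oil and 7 rose in source oil at 96 hpf. Of all names of that abundance at 96 hpf, 68 rose and 138 fell of 294 in slick oil. In source oil 57 rose and 128 did not pass of 291, with the rest lower. At 24 and 48 hpf edgeR's quasi-likelihood test and DESeq2 called 0 of these 8 partners in either oil. An unadjusted p under 0.05 was found for 0 of them in slick and 4 in source oil at 24 hpf, and for 2 and 4 at 48 hpf. Over all partners tested, the median log2 fold changes were -0.24 (slick) and -0.01 (source) at 24 hpf. They were -0.04 and -0.02 at 48 hpf, and 0.39 and 0.47 at 96 hpf. Over the 8 of higher count they were -0.01 and 0.15, 0.04 and 0.11, and 0.27 and 0.41 at the same stages. At 24 and 48 hpf the numbers of partners called rest on few libraries: the slick 24 hpf total of 11 was 2 without control replicate 1, 7 without slick replicate 1 and 3 without slick replicate 2. The source 24 hpf total of 5 was 3 without control replicate 1 or 3 or source replicate 3, and 8 without source replicate 1. The source 48 hpf total of 7 was 3 without control replicate 4 or 5 or source replicate 4 or 5, and 4 without source replicate 6.

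Of the partners that passed at 48 hpf, those of highest mean count were miR-19a and miR-19a-3p, known in mice as the growth-promoting part of the miR-17-92 transcript. Their levels were the same in every library at 48 hpf, so they count as 1 measurement, and it fell in both oils. At 48 hpf miR-19a stood at 117, 122 and 79.1 in controls, 49.3, 53.6 and 44.4 in slick and 60.9, 73.7 and 64.4 in source oil. The log2 differences, oil minus control, were -1.13 ± 0.12 and -0.71 ± 0.11, and the groups did not overlap. At 24 hpf miR-19a-3p differed by -0.91 ± 0.25 in slick and -0.60 ± 0.20 in source oil. Without control replicate 1, whose level of 103.8 in the slick table was the highest of the 3, these were -0.64 and -0.38 and did not pass (adjusted p 0.0938 and 0.199, edgeR's quasi-likelihood test). The slick call was also lost without slick replicate 2 (0.0504) and the source call without control replicate 3 (0.0594) or source replicate 3 (0.0994).

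miR-106, a paralogue of miR-17, fell in slick oil at 24 hpf (-0.50 ± 0.14), and did not pass without control replicate 1 (adjusted p 0.0698) or slick replicate 2 (0.0801) in edgeR's quasi-likelihood test. miR-20b-5p, a further miR-17 relative, rose in source oil at 24 hpf (0.92 ± 0.20). miR-19b fell in slick oil at 48 hpf (-0.59 ± 0.15), as did miR-19 in source oil (-0.41 ± 0.12). The miR-19 call was lost without control replicate 4 or 5 or any one source library (adjusted p 0.066 to 0.177). At 96 hpf miR-17-5p, the founding member of the transcript, rose from 103, 94.8 and 105 in controls to 136, 125 and 138 in slick and 135, 142 and 141 in source oil, both oil groups above the controls. Its differences were 0.39 ± 0.09 and 0.47 ± 0.08. miR-18a-5p fell in slick oil at 96 hpf (-0.45 ± 0.08).

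In controls 27 of 32 partners were lower at 96 than at 48 hpf, beside 29.1% of all names, with a median log2 difference of -0.84 (-0.03 over all names). Between 24 and 48 hpf 10 of 32 partners fell and 2 rose, beside 22.0% and 23.3% of all names. The log2 difference of the later stage minus the earlier was -0.41 ± 0.07 and then -0.46 ± 0.08 for miR-17-5p, and -0.27 ± 0.07 for miR-20a-5p in the first step.

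The libraries are whole animals, so fewer cells of a type and less RNA per cell cannot be told apart. All 14 tissue marker names were found in all 6 tables, none at 0 except miR-451 in 1 library. The summed level of the 4 muscle names (miR-1, miR-133a, miR-133b and miR-206) at 24 hpf was 1120.0 to 1228 in controls, 1377 to 1419.8 in slick and 1388 to 1443 in source oil. That sum moved with the family, but its members did not all pass: miR-206 rose in both oils (log2 0.33 slick, 0.37 source) and miR-133b in slick oil (0.47), while miR-1 and miR-133a passed in neither. At 48 hpf the sum was 1066 to 1244, 1236 to 1257 and 1194 to 1256. At 96 hpf it was 933 to 961 in controls, 884 to 902 in slick, below every control, and 908 to 955 in source oil. There miR-1 and miR-206 fell and miR-133a and miR-133b rose in both oils. The lens and epithelium pair (miR-184 and miR-203) at 48 hpf was 710.2 to 783 in controls, 811 to 836 in slick and 754 to 807 in source oil. Of the pair, miR-184 rose (log2 0.41 slick, 0.25 source) and miR-203 did not pass (-0.01 and -0.02). At 24 hpf miR-184 also rose (0.71 slick, 0.46 source), and at 96 hpf it did not pass (-0.01 and -0.13). miR-203 did not pass at those stages either. The sum of the pair at 24 hpf was 904 to 982 in controls, 1016.5 to 1097 in slick and 936 to 1128 in source oil. At 96 hpf it was 699 to 719, 635 to 677 and 632 to 678, both oil groups below every control.

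The red blood cell pair (miR-144 and miR-451) at 48 hpf was lower in oil, 193 to 237 in controls against 97.7 to 107 in slick and 151 to 167 in source oil. There miR-144 fell (log2 -1.15 slick, -0.52 source), while miR-451 did not pass (-0.36 and 0.10). At 96 hpf miR-144 fell in slick oil (-1.30) and did not pass in source oil (-0.16). At that stage miR-451 rose (1.16 and 0.70). The sum of the pair at 96 hpf was 92.5 to 117 in controls, 70.8 to 79.8 in slick and 102 to 111 in source oil. At 24 hpf the sum was 22.7 to 23.5, 10.1 to 16.4 and 15.6 to 32.2, and miR-144 did not pass (-0.60 and 0.25). The neural pair (miR-124 and miR-9) at 96 hpf was 817 to 832 in controls, 596 to 624 in slick and 631 to 679 in source oil. There miR-9 fell (log2 -0.44 slick, -0.35 source) and miR-124 did not pass (0.00 and 0.08). At 24 hpf the neural pair was 497 to 535 in controls, 423 to 467 in slick and 442 to 486 in source oil. At that stage miR-124 fell (log2 -0.96 slick, -0.83 source) and miR-9 did not pass (-0.16 and -0.10). The early embryo list (the miR-430 names) at 24 hpf was 891 to 913 in controls, 829 to 896 in slick and 933 to 950 in source oil. At 48 hpf it was 502 to 511, 463 to 488 and 464 to 489, both oil groups below every control. None of its names passed in either oil at these stages. At 96 hpf the sum overlapped between the groups, at 160.0 to 191, 165 to 183 and 169 to 179. Of its names miR-430b rose there (log2 0.68 slick, 0.70 source) and miR-430a did not pass (-0.17 and -0.16). At that stage miR-430c was not tested. The liver marker miR-122 fell at 96 hpf, with log2 fold changes of -0.73 in slick and -0.43 in source oil. The part of these tissues in the family's values was not tested.

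Likeness was taken as the correlation of log2 level over the 9 group means, among 568 names outside the family, with 1 name kept per miRNA number. The names most like miR-25 were miR-10d-5p (Pearson r 0.971), miR-22-3p (0.969), miR-206 (0.968), miR-184a (0.961) and miR-1-5p (0.951). For miR-92a they were miR-1c (0.961), miR-10c-5p (0.935), miR-30c (0.930), miR-184 (0.930) and miR-101b-5p (0.900). The 9 points share the 27 libraries and their scaling, and the order is a description with no test.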

How the data were processed

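The authors deposited 6 tables of whole-number counts per microRNA name, each with 3 control and 3 oil libraries, and 6 tables of DESeq2 results with the authors' log2 fold changes, p-values and adjusted p-values, per the file headers. The same tables hold the authors' normalised mean signal and test score per name, not used here. DESeq2 is named, with no version, in the submitters' processing notes. How reads were aligned and assigned to names is not given in the sources used here. The members and lists were chosen with earlier results of these data known.

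The fits used edgeR 4.0.16 (R 4.3.3), with filterByExpr (min.count of 10), TMM scaling, the quasi-likelihood F test, two-sided, over all names of a table, and Benjamini-Hochberg adjustment at 0.05. The SE of a log2 fold change is its absolute size divided by the square root of the F statistic. It thus rests on a spread moderated over all names and not on the compared libraries alone. This edgeR test never gives a p below the Poisson bound, so some p-values are larger than the fold change and SE imply. Oil was compared with control within each table. Slick against source oil and the steps between control stages used names with equal control counts in the tables joined. The effect by stage used the names found in all 3 tables of its oil. No family name had unequal control counts. Levels are counts per 70000 after TMM scaling. Of the 6 tables, 1 held 6813 blank lines, which were left out. Named are the 8 leads, every miR-363 name tested, up to 5 further family names per direction and comparison, and up to 3 cluster partners of highest count past the threshold. Alternatives were DESeq2 1.42.0, other scalings (cyclic loess with limma 3.58.1), other filters, merged names, 1 fit of all libraries, a replicate block and leaving out each library. In slick oil at 96 hpf same-numbered libraries deviated together from their group means (r 0.141 to 0.175), a pairing that comes from the data and not the labels; in no other oil comparison were all 3 correlations above 0.1. The scripts were tested on simulated data.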

Additional observations from a re-analysis of the deposited data

Results flagged for a closer look

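Oil effects that differed between the 3 stages, by the treatment-by-stage terms of edgeR's quasi-likelihood test adjusted over all names, were found for 8 of 16 family names in slick oil, beside 41.4% of all names, and 5 of 16 in source oil, beside 22.0%. With cyclic loess scaling the counts were 2 and 0, and without control 96 hpf replicate 7 the slick count was 1. In slick oil the adjusted p was 4.45e-04 for miR-25, 4.22e-04 for miR-25-3p, 0.0121 for miR-25-3-5p, 0.00136 for miR-92, 0.00208 for miR-92-3p, 0.00540 for miR-92a, 0.00108 for miR-92a-3p and 0.00804 for miR-92b. In source oil it was 0.00668 for miR-25, 0.00668 for miR-25-3p, 0.0495 for miR-92, 0.0495 for miR-92-3p and 0.00723 for miR-92a-3p. In slick oil, 7 of these names had a log2 fold change at 96 hpf that was 0.37 to 0.55 below that at 24 hpf, and miR-25-3-5p one that was 1.31 below it. Depth differed between oil and control libraries at 96 hpf, and its part in these values was not tested.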

How the results depend on the processing

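The counts of family names called in oil against control stayed within 1.5 times of their values under every alternative run, except source oil at 48 hpf (5 called) with DESeq2 (1), the authors' deposited table (3) and without single libraries (3 to 5), and source oil at 96 hpf (6 called) with DESeq2 (1). Slick against source oil kept 0 called at 24 hpf and 5 to 6 at 48 hpf. At 96 hpf (0 called) it gave 1 with DESeq2 size factors, 1 with cyclic loess, 1 with the replicate block and 0 to 1 without single libraries. Control 48 against 24 hpf (2 called) gave 0 with DESeq2, 0 among names with a mean count of at least 50, and 1 to 5 without single libraries. Control 96 against 48 hpf (2 called) gave 0 with DESeq2, 8 with library size alone, 7 with cyclic loess and 2 to 6 without single libraries. The slick effect by stage (8 called) gave 3 with DESeq2, 4 with library size alone, 2 with cyclic loess, 3 with a mean count of at least 50 and 1 to 8 without single libraries. The source effect by stage (5 called) gave 3 with DESeq2, 3 with library size alone, 0 with cyclic loess, 3 with a mean count of at least 50, 3 with identical names merged and 3 to 5 without single libraries. The mean count limit tests fewer names; otherwise the cause was not tested.

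Of the reruns for single names, 1509 kept their direction and side of the threshold, 119 lost the call, 5 gained it and 19 changed sign. The sign changes were in names that had not passed: miR-25 (0.0242) and miR-25-3p (0.0223) in slick oil at 96 hpf with cyclic loess, and miR-363 with miR-363-3p. These 2 names went to -0.30 with cyclic loess in slick oil at 96 hpf, and to 0.0223 without a filter and 0.0100 with all libraries in 1 fit in source oil at 48 hpf. Without single libraries miR-363 ranged from -0.0575 to 0.34 (miR-363-3p to 0.39) in slick oil at 24 hpf, from -0.0873 to 0.0663 in source oil at 48 hpf and from -0.0827 to 0.59 in slick oil at 96 hpf, as did miR-363-3p at these 2 stages. In source oil at 96 hpf miR-92 (0.21 and 0.24) and miR-92-3p (0.22 and 0.24) passed with library size alone and with a mean count of at least 50, and miR-92-3p also with cyclic loess (0.22).

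Over all names, DESeq2 called 138, 60, 144, 45 and 202 names where edgeR called 238, 158, 262, 126 and 317 (slick 24, source 24, slick 48, source 48 and source 96 hpf), and in the authors' deposited table the first 4 comparisons held 93, 61, 137 and 40 calls. With a mean count of at least 50 the numbers were 135, 80, 150, 66 and 196, and 249 against 403 in slick oil at 96 hpf. Without single libraries they went as low as 148 in slick and 82 in source oil at 24 hpf and 65 in source oil at 48 hpf. With library size alone, 107 of 244 calls in slick oil at 24 hpf were higher (131 of 238 with TMM), and in source oil 65 of 149 (85 of 158). In source oil at 48 hpf 12 of 45 DESeq2 calls were higher (60 of 126 with edgeR).

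The labels do not say that equal replicate numbers pair pools across groups. With the replicate block the family counts in the 6 oil comparisons were 12, 9, 11, 5, 9 and 6, equal to those without it. Low counts limit miR-92c, miR-92d-3p, miR-363 and the 5p names.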
